A study of Mus musculus with 8 samples.

Results

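Spleens of C57BL/6J mice that had been fixed in formalin and embedded in paraffin (FFPE tissue) gave the nuclei, which were profiled by single-cell ATAC-seq, in which the Tn5 transposase cuts and tags accessible DNA and split-pool barcodes mark each nucleus. The barcodes described here came from the +RV condition, in which tagmented DNA was purified after reverse crosslinking, the step that releases DNA from formaldehyde-fixed protein. Members were chosen by their number of deposited fragments: barcodes with at least 1500, called deep barcodes, were set against barcodes with 500 to fewer than 700, called shallow barcodes. Of 18620 barcodes in the +RV set, 856 were deep (4.60%) and 10439 were shallow (56.1%). The 2 labelled +RV libraries were deposited as 1 pooled set, so there were no replicates to test across and no p-value is given. The labels give no genetic change or drug and do not say how many animals were used. Per the study's methods the mice were young adults of both sexes.

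Tn5 cuts most readily in nucleosome-free DNA at promoters and enhancers, so fragments gather at active regulatory elements. Longer fragments span 1 or more nucleosomes. The spleen holds B cells in follicles, T cells around arterioles, and a red pulp of macrophages, red cells and their precursors. The mouse spleen also makes red cells and platelets in adult life, and the tail of the pancreas lies next to it. A gene whose window carries a larger share of fragments is read here as having a larger share of the group's tagged DNA, not as being more highly expressed.

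Depth was the value that chose the members and is given as a description. The median was 1863 fragments per deep barcode (quartiles 1634 and 2360, highest 8087) and 579 per shallow barcode. Deep barcodes held 1824919 fragments, 12.4% of the set, of which 1685477 lay on chromosomes 1 to 19, X and Y and are called nuclear. Shallow barcodes held 6110800 fragments, of which 5679224 were nuclear. Barcodes in the first 50 counts from the limit up had 14.01% of nuclear fragments at promoters, 18.8% in regions accessible in bulk and 6.75% of all fragments mitochondrial. The 102 barcodes in the 50 counts below it had 14.4%, 18.98% and 7.02%. The number of barcodes declined with depth and there was no gap at the limit. All intervals below are exact 95% intervals, binomial for a share, Poisson for a count and conditional for a ratio of counts. They cover counting error only, since fragments of 1 barcode are not independent and the pool does not keep replicates apart.

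**Figure D1:**
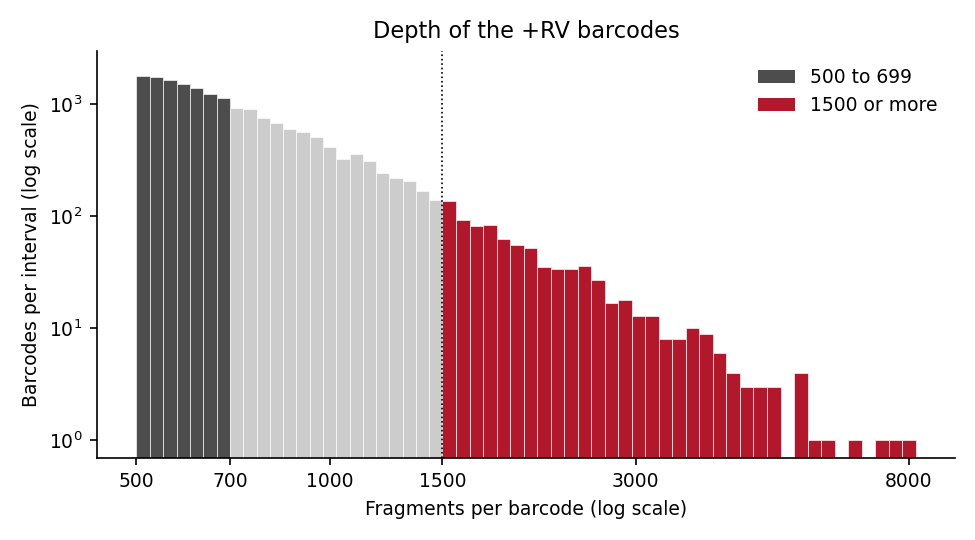
Number of +RV barcodes (vertical axis, log scale) by fragments per barcode (horizontal axis, log scale) in intervals of about equal width on the log scale. Dark bars are the 10439 shallow barcodes, red bars the 856 deep barcodes and the dotted line is at 1500 fragments; the counts decline without a gap at the limit.

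Deep barcodes had a smaller part of their fragments at open regulatory DNA. Promoters, here the 1000 bp before and the 200 bp after a transcription start site (TSS) of a protein-coding gene, held 14.4% of nuclear fragments in deep and 15.6% in shallow barcodes, a ratio of 0.920 (interval 0.916 to 0.924). Regions called accessible in both bulk +RV libraries held 18.8% against 21.4%, a ratio of 0.878 (0.874 to 0.881). Outside promoters these bulk regions held 7.60% against 9.003%, a ratio of 0.844 (0.839 to 0.849). The lower share at regulatory elements was therefore found at promoters and away from them. Gene windows outside promoters and bulk regions held 42.6% against 39.4%, a ratio of 1.08 (1.08 to 1.08), while the remaining intergenic DNA held 35.5% against 36.01%. Both groups had passed the authors' selection on the fraction of fragments at TSSs. The study reports more +RV barcodes at the depth called deep here than the deposited set holds. The deep group is thus not all barcodes of that depth, and those left out could not be compared. Bulk regions at promoters held 12.9% of nuclear fragments in deep and 14.4% in shallow barcodes, so much of the bulk region share lay where the selection acted. The part of the selection in the promoter shares, the bulk region shares and the results below was not tested. Of 37496 bulk regions, 3474 had a mean of at least 15 fragments per 1000000 nuclear fragments (CPM). Among these, 35 were higher in deep barcodes past 1.5-fold (1.01%) and 230 were lower (6.62%), around a median log2 ratio of -0.149. Most of them, 3270, overlapped promoters. The 204 outside promoters gave 7 higher and 17 lower calls.

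The same order was seen per barcode when each was thinned to 500 fragments, which makes the counts alike. Random thinning leaves the expected share of a barcode unchanged, so this order is no separate test of depth. The median share at promoters was 13.8% per deep barcode (quartiles 11.9 and 16.2%) and 15.1% per shallow barcode (12.8 and 17.8%). For bulk regions the medians were 18.4% (15.8 and 21.1%) and 20.6% (17.4 and 24.5%). The quartile ranges overlapped widely, so single barcodes of the groups could not be told apart by these shares.

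Long fragments were more frequent in deep barcodes. Fragments of 148 bp or more, which exceed what a nucleosome core wraps, made up 21.3% of nuclear fragments in deep and 19.9% in shallow barcodes, a ratio of 1.07 (1.07 to 1.08), and the median length was 78 bp against 75 bp. Of the classes of nuclear fragments compared, the difference was largest outside promoters and bulk regions, with 19.1% against 17.04% (ratio 1.1195, 1.1145 to 1.1246). At promoters the shares were 29.9% and 29.1% (ratio 1.03, 1.02 to 1.04). Mitochondrial DNA, which carries no nucleosomes, also had a larger share of long fragments in deep barcodes, with 15.2% against 13.4% (ratio 1.13, 1.11 to 1.1498). The mean GC content of nuclear fragments was 49.0% in deep and 48.9% in shallow barcodes, and outside promoters and bulk regions it was 46.3% and 45.8%.

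Mitochondrial fragments made up 7.47% of all fragments in deep and 6.86% in shallow barcodes, a ratio of 1.09 (1.08 to 1.10). This difference rested on the deepest barcodes. Without the deepest 1% of the set, 186 barcodes of at least 2445 fragments, the ratio was 0.996 (0.989 to 1.00). In the 6 depth classes the share was between 6.66% and 7.15% below 3000 fragments per barcode and 9.53% in the 87 barcodes with 3000 or more. The median per barcode, over all its fragments, was 5.83% in deep and 5.66% in shallow barcodes.

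**Figure D2:**
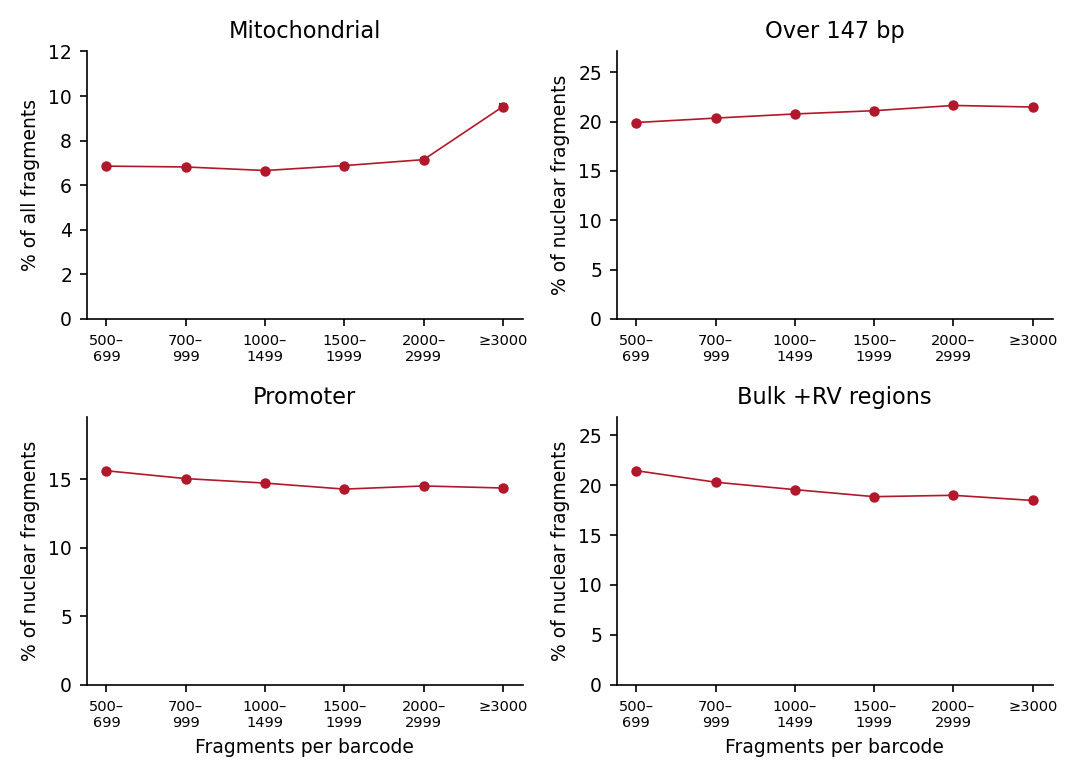
Shares of fragments (vertical axes, percent, from 0) by depth class (horizontal axes, fragments per barcode) in the +RV set; bars are exact 95% binomial intervals and are mostly smaller than the points. The promoter share went from 15.6% at 500 to fewer than 700 fragments to 14.4% at 3000 or more and the bulk region share from 21.4% to 18.5%, while the mitochondrial share was set apart only in the deepest class.

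Measures of how a barcode's fragments were spread depended on thinning, which draws a smaller part of a deep barcode than of a shallow one. With 500 fragments each, the median number of 5-kb bins of the nuclear genome that held a fragment was 462 in deep (quartiles 439 and 478) and 456 in shallow barcodes (434 and 473). With 400 nuclear fragments each, which sets aside the mitochondrial part and leaves out 63 shallow barcodes, the medians were 394 and 390. Without thinning they were 1680.5 and 520. Places where at least 3 fragments of 1 barcode overlapped on an autosome, more than 2 gene copies give at a single moment, occurred in 25.1% of thinned deep barcodes (22.2 to 28.2) and in 48.4% of thinned shallow barcodes (47.5 to 49.4). With all fragments kept they occurred in 97.1% and 60.1%. Fragments that shared an end with another fragment of the barcode made up 0.402% against 1.13% after thinning and 1.37% against 1.27% with all fragments kept. The order of the last 2 measures turned with thinning, and the part of thinning in the small difference in bins was not tested.

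Barcodes that shared their bases were also counted. A barcode joins 15 bases with 1 of 20 Tn5 indices, each of which marks a separate tagmentation reaction. The same 15 bases were found with another Tn5 index for 36 deep barcodes, 4.21% (2.96 to 5.78), and for 365 shallow barcodes, 3.50% (3.15 to 3.87). Nuclei with different Tn5 indices remain separate barcodes, so this count cannot show nuclei merged within 1 barcode. No doublet caller was run, and the part of merged nuclei in the results below was not tested. No deep or shallow barcode was among the 2 that occurred in the −RV set as well.

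Gene windows, from 5 kb upstream of a protein-coding gene to its end, were compared on the CPM scale of each group. Across genes the groups were alike, with a Pearson correlation of 0.924 on the log2 scale over the 7912 genes that averaged 30 CPM or more, which are not independent replicates. A gene was called past 1.5-fold on the log2(CPM + 1) scale, which slightly understates the change of low genes. By this rule 239 genes were higher in deep barcodes (3.02%) and 144 were lower (1.82%), together 383 (4.84%), around a median log2 ratio of 0.02. The SD of log2 ratios was 0.29, where counting alone gave 0.18. When promoter windows alone were counted, 629 genes reached the minimum, of which 2 were higher and 21 lower, so that higher calls made up 8.70% of the calls against 62.4% for gene windows. The 1978 genes with the shortest windows had a median log2 ratio of -0.07, with 19 higher and 57 lower calls, and the 1978 with the longest had a median of 0.08, with 96 higher and 20 lower calls.

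**Figure D3:**
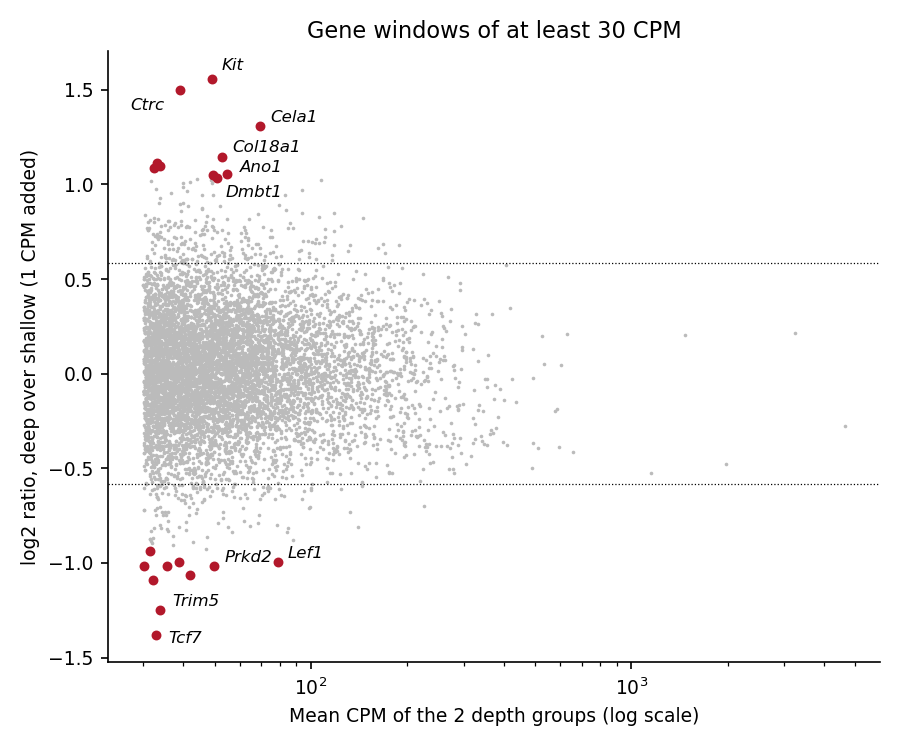
Log2 ratio of deep over shallow barcodes (vertical axis, 1 CPM added) against the mean CPM of the groups (horizontal axis, log scale) for the 7912 protein-coding gene windows that averaged 30 CPM or more. Red points are the 10 highest and 10 lowest ratios and dotted lines mark 1.5-fold; Kit is highest at 1.56 and Tcf7 lowest at -1.38.

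Kit had the highest ratio of all genes tested. Kit encodes the receptor for stem cell factor on blood stem and progenitor cells and mast cells, and lies on mm10 chromosome 5 from 75574916 to 75656722 (plus strand). Its window held 124 fragments in deep barcodes and 138 in shallow barcodes, which is 73.6 against 24.3 CPM (log2 ratio 1.56; ratio 3.03, interval 2.36 to 3.89). From the shallowest depth class to the deepest, Kit stood at 24.3, 30.5, 59.8, 79.6, 64.9 and 73.9 CPM. Most of the increase lay below 1500 fragments per barcode, and the 3 deep classes had no further order. Fragments lay all along the gene and were densest at its start. The 5 kb before the start held 13 deep and 9 shallow fragments, the first 5 kb of the gene 19 and 23, and the next 5 kb 12 and 5. Over barcodes they were spread as well, since 105 of 856 deep barcodes carried a Kit fragment, 16 carried 2 or more and none more than 3.

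The digestive enzymes of the pancreas came next. Ctrc, which encodes chymotrypsin C (chromosome 4, 141814962 to 141846359), had 98 deep and 113 shallow fragments, 58.1 against 19.9 CPM (log2 ratio 1.501). Its window contains that of the elastase gene Cela2a, so some of these fragments count for both. Cela1, an elastase of acinar cells (chromosome 15, 100674421 to 100687921, minus strand), had 167 and 224 fragments, 99.1 against 39.4 CPM (log2 ratio 1.31; ratio 2.51, interval 2.04 to 3.08). Unlike Kit, Cela1 was highest in the deepest class, at 39.4, 49.8, 56.5, 74.6, 89.5 and 180 CPM in order of depth. At the other end, Tcf7 had 30 deep and 272 shallow fragments, 17.8 against 47.9 CPM (log2 ratio -1.38; ratio 0.372, interval 0.246 to 0.543). Tcf7 encodes the transcription factor TCF1 of T cells and lies on chromosome 11 from 52252371 to 52283014. Lef1, which encodes its relative LEF1 (chromosome 3, 131110471 to 131224356, plus strand), had 88 and 597 fragments, 52.2 against 105 CPM (log2 ratio -0.996).

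The DNA just upstream of Kit, Cela1 and Lef1 is shown because Kit and Cela1 were among the highest ratios and Lef1 among the lowest. The sequences are those of RefSeq for GRCm38.p6 (mm10), 5′ to 3′ on the strand of the gene, without any base inside the GENCODE gene. Capitals mark the GATA motifs AGATAA and TGATAA and the E-box motifs CACCTG and CAGCTG, searched on both strands.
Kit, chr5:75574737-75574915, plus strand: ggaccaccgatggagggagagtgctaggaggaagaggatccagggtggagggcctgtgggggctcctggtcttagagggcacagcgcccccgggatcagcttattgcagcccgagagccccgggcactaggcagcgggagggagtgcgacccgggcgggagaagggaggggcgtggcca
Cela1, chr15:100687922-100688170, minus strand: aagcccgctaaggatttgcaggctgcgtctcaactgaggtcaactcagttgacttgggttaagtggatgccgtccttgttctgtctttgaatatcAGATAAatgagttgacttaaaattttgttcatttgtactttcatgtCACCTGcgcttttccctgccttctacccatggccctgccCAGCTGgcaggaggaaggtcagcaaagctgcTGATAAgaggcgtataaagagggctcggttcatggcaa
Lef1, chr3:131110047-131110296, plus strand: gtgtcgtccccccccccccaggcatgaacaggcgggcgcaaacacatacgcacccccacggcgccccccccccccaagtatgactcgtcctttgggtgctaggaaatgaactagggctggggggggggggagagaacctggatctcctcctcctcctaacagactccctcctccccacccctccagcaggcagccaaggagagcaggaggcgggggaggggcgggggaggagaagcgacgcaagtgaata

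The Kit sequence has a GC content of 69.3% and that of Lef1 66.4%, and neither window holds either motif. The Cela1 sequence has a GC content of 47.8% and holds 2 GATA motifs and 2 E-box motifs. Of 32817 promoter windows of 250 bases in the RefSeq table, 16.6% hold a GATA motif and 27.7% an E-box motif. The TCF motif ATCAAAG, held by 3.21% of all windows, was in none of the 3. Counts near the printed RefSeq starts were small. In the 1000 bp around each, Kit had 8 deep and 8 shallow fragments (4.75 against 1.41 CPM). Cela1 had 9 and 9 (5.34 against 1.58 CPM), and Lef1 had 3 and 9 (1.78 against 1.58 CPM). Promoter windows as defined above, joined over all start sites of a gene, gave other counts. They held 7 and 8 fragments for Kit, 64 and 77 for Cela1 and 8 and 42 for Lef1. By these windows the Lef1 share was lower in deep barcodes.

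The other genes with the highest ratios stood between 2.08 and 2.25 times the shallow level. Col18a1, which encodes a collagen of basement membranes, had 73.0 against 32.4 CPM (ratio 2.25, interval 1.78 to 2.85). Ano1, a calcium-gated chloride channel of secretory epithelia, had 74.2 against 35.2 CPM, and Dmbt1, a secreted scavenger receptor protein, had 68.8 against 33.1 CPM. Bmp1, a protease that processes collagen, had 44.5 against 20.4 CPM. The sorting receptor gene Sort1 had 67.04 against 31.9 CPM, Tubgcp3, a component of the gamma-tubulin ring, had 45.7 against 20.6 CPM, and Ap3s2, a subunit of the AP-3 vesicle coat, had 46.3 against 21.1 CPM.

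Further genes among the lowest ratios were at 0.409 to 0.493 of the shallow level. Trim5, a restriction factor, had 19.6 against 47.9 CPM. The kinase gene Prkd2 had 32.6 against 67.1 CPM, and S100a10, a partner of annexin A2, had 19.6 against 40.7 CPM. Selp, the P-selectin of platelets and endothelium, had 25.5 against 51.8 CPM. The ribosomal protein gene Rpl37 had 23.1 against 47.9 CPM, and Lrrc6, needed for the assembly of cilia, had 26.7 against 56.9 CPM. Gm5127, on chromosome X, had 20.2 against 44.0 CPM. Chromosome X as a whole held 2.31% of nuclear fragments in deep and 2.53% in shallow barcodes (ratio 0.914, 0.903 to 0.924), and the Y chromosome 0.0832% and 0.109% (ratio 0.761, 0.717 to 0.806). The part of the animals' sex in these shares was not tested. The autosomes lay between 0.966 (chromosome 10) and 1.05 (chromosome 11).

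Lineage genes were then compared as lists, with each list's windows merged so that a fragment counted once. Fewer nuclei of a type and less tagged DNA per nucleus cannot be told apart in such sums. Members higher or lower are counted at any size of difference. The median log2 ratio over all genes tested was 0.02, and the share of all genes in each direction was not counted. T cell genes were the lowest of the 19 lists, with 758 deep and 3933 shallow fragments, 450 against 693 CPM (ratio 0.649, interval 0.600 to 0.702). All 18 members were lower in deep barcodes, with a median log2 ratio of -0.57. Of the 7 members with at least 30 CPM, 4 were lower past 1.5-fold, where 1.82% of all genes tested were, and 0 were higher. Cd247, the zeta chain of the T cell receptor, was nearest to parity with 93.7 against 108 CPM (ratio 0.867, 0.723 to 1.03). The defining marker Cd3e had 7 deep and 70 shallow fragments, 4.15 against 12.3 CPM (ratio 0.337, 0.131 to 0.732). The loci of the T cell receptor chains did not share this difference. The alpha and delta locus (ratio 1.05, 0.944 to 1.16) and the beta locus (ratio 1.03, 0.920 to 1.16) had intervals that included 1.

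B cell genes were lower in the same direction, with 1289 deep and 5725 shallow fragments, 765 against 1008 CPM (ratio 0.759, 0.714 to 0.806). All 16 members were lower in deep barcodes, with a median log2 ratio of -0.36, and 2 of the 8 with at least 30 CPM were lower past 1.5-fold, where 1.82% of all genes tested were. Ebf1, a transcription factor that commits cells to the B lineage, had 188 against 237 CPM (ratio 0.794, 0.700 to 0.898). Bank1, a scaffold of B cell receptor signalling, had 142 against 172 CPM (ratio 0.826, 0.714 to 0.952). Pax5, which maintains B cell identity, had 78.9 against 121 CPM (ratio 0.654, 0.539 to 0.789). The immunoglobulin loci were lower as well. The ratio was 0.877 (0.821 to 0.936) for the heavy chain, 0.780 (0.728 to 0.835) for kappa and 0.639 (0.537 to 0.757) for lambda. The plasma cell list had a ratio of 0.847 (0.7496 to 0.956), and its interval included 1 in several alternatives, such as 0.920 (0.7998 to 1.06) without the deepest 1%. The NK cell list, on 141 and 640 fragments, had a ratio of 0.742 (0.614 to 0.892), but its best covered members Klrb1c, Tbx21 and Klre1 stood at 1.01, 0.910 and 1.04. With barcodes thinned to 500 fragments the list was at 0.834 (0.578 to 1.17).

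The erythroid and megakaryocyte lists were higher in deep barcodes, the second with an interval that included 1 in some alternatives. The erythroid list had 766 deep and 1813 shallow fragments, 454 against 319 CPM (ratio 1.42, 1.31 to 1.55), and 14 of 15 members were higher, with a median log2 ratio of 0.37. Ank1, the ankyrin of the red cell membrane skeleton, had 210 and 358 fragments, 125 against 63.0 CPM (ratio 1.98, 1.66 to 2.35), and was the single member of the 5 with at least 30 CPM to be higher past 1.5-fold, where 3.02% of all genes tested were. Tal1, a transcription factor of blood progenitors and erythroid cells, had 46.3 against 34.9 CPM (ratio 1.33, 1.01 to 1.73). The exception was the globin gene Hbb-bt, with 14 and 77 fragments (ratio 0.613, 0.320 to 1.09), while the other globin genes of the list were among the higher members. Globin genes are near-identical copies whose fragments may be split or lost in mapping, and the part of mapping in these ratios was not tested. Hbb-bt was named after its values were seen. The megakaryocyte list had 285 and 701 fragments (ratio 1.37, 1.19 to 1.57), with 6 of 8 members higher, and stood at 1.26 (0.951 to 1.63) with barcodes thinned to 500 fragments. Its main member Vwf, von Willebrand factor, is also made by endothelium and had 101.5 against 82.6 CPM (ratio 1.23, 1.03 to 1.47). The platelet integrin gene Itga2b had 26.1 against 12.2 CPM (ratio 2.15, 1.44 to 3.18) and the platelet glycoprotein gene Gp9 had 13.1 against 5.99 CPM (ratio 2.18, 1.21 to 3.84).

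Acinar genes of the exocrine pancreas had the highest ratio of the lists, with 375 deep and 500 shallow fragments, 222 against 88.0 CPM (ratio 2.53, 2.20 to 2.90). All 8 members were higher, with a median log2 ratio of 1.39 against 0.02 over all genes tested, and the 1 member with at least 30 CPM, Cela1, was past 1.5-fold, where 3.02% of all genes tested were. Cela2a had 35.0 against 14.3 CPM (ratio 2.45, 1.72 to 3.48) and the carboxypeptidase gene Cpa1 had 21.4 against 11.1 CPM (ratio 1.93, 1.24 to 2.95). The label of the samples is spleen, and the lists do not tell nuclei of adjoining pancreas from free DNA of it.

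Acinar fragments were concentrated in few barcodes. Of 856 deep barcodes 165 carried at least 1, 44 carried 3 or more, 25 carried 5 or more and the highest carried 12, and the 43 highest held 60.5% of the 375 fragments. T cell, B cell and erythroid fragments were spread more evenly, with 23.7%, 22.3% and 27.2% in their 43 highest barcodes. For Kit, with 124 fragments, the 43 highest held 50%. Fewer fragments in total raise this share, and the totals of these lists differed. At 500 fragments per barcode, 17 deep barcodes carried 2 or more acinar fragments, 1.99% (1.16 to 3.16), and 51 shallow barcodes did, 0.489% (0.364 to 0.642). The 44 deep barcodes with 3 or more acinar fragments differed in other measures from the 691 with none, which is given as a description since acinar fragments chose them. Their median depth was 2518.5 against 1828 fragments, and a deeper barcode reaches 3 acinar fragments more readily. Their mitochondrial share was 16.4% (16.2 to 16.6) against 6.49% (6.45 to 6.53), and their promoter share 18.4% against 14.04%. B cell genes stood at 297 against 798 CPM, T cell genes at 269 against 475 CPM and erythroid genes at 250 against 465 CPM. Other readouts of these lineages were not uniform. The immunoglobulin kappa locus was higher, at 797 CPM (637 to 984) against 594 CPM (553 to 637). Of 2 lists chosen after the values were seen, a second erythroid list stood at 936 CPM (762 to 1137) against 1017 CPM (963 to 1073). Naive T cell genes, the other, stood at 417 CPM (304 to 558) against 1019 CPM (965 to 1075).

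Barcodes chosen by their Kit fragments are described in the same way. Those with 2 or more had a median of 2385.5 fragments, against 1850 in those with none, and depth again helps a barcode reach this count. Their mitochondrial share was 10.05% against 7.45%, their promoter share 16.2% against 14.4% and T cell genes stood at 217 CPM (93.7 to 428) against 461 CPM (427 to 497). These values and those of B cell genes differed in the same direction as in the barcodes rich in acinar fragments, and erythroid genes in the opposite one. In the 16 deep barcodes with 2 or more Kit fragments, erythroid genes stood at 814 CPM (549 to 1162), against 423 CPM (390 to 458) in the 751 with none. B cell genes stood at 163 CPM (59.8 to 354) against 808 CPM (763 to 856). Acinar genes stood at 624 CPM (396 to 937) against 207 CPM (184 to 232). These groups are small and held 36845 and 1453921 nuclear fragments.

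The macrophage list had 1121 and 3530 fragments and an interval that just included 1 (ratio 1.07, 0.9996 to 1.14). With deep barcodes from 2000 fragments it was at 1.13 (1.04 to 1.24) and with barcodes thinned to 500 fragments at 1.153 (1.02 to 1.302). Its best covered members were Cx3cr1, a chemokine receptor, with 167 against 169 CPM, the mannose receptor gene Mrc1 with 68.2 against 62.9 CPM, and Spi1, which encodes PU.1, with 63.5 against 66.7 CPM. Of 19 members, 11 were higher and 8 lower. Of the 7 with at least 30 CPM, 0 were past 1.5-fold either way, where 4.84% of all genes tested were. By interval, 3 members lay above 1 and 0 below, and the share of all genes with such an interval was not counted. These 3, named after their values were seen, were the iron exporter gene Slc40a1 (ratio 1.54, 1.11 to 2.12), the growth factor receptor gene Csf1r (1.52, 1.11 to 2.05) and the complement gene C1qb (2.89, 1.22 to 6.73). The intervals also included 1 for neutrophil (1.06, 0.822 to 1.36), endothelial (0.999, 0.925 to 1.08), stromal (1.09, 0.951 to 1.26), cell cycle (1.01, 0.926 to 1.10), housekeeping (0.954, 0.898 to 1.01), skeletal muscle (1.16, 0.973 to 1.39) and adipocyte genes (1.10, 0.913 to 1.32). The dendritic cell list had a ratio of 0.931 (0.867 to 0.999) and the neuron list of 0.927 (0.858 to 0.9998), and both intervals included 1 in most alternatives. Hepatocyte genes had a ratio of 1.33 (1.07 to 1.63) on 129 and 328 fragments and stood at 1.124 (0.721 to 1.68) with barcodes thinned to 500 fragments. The 6 markers of the study, which include Cd3e and Pax5, had a ratio of 0.733 (0.636 to 0.841). Among these markers, the vascular adhesion gene Vcam1 had 19.6 against 20.8 CPM, the macrophage scavenger receptor gene Cd163 23.1 against 16.4 CPM and Tppp3 11.9 against 7.40 CPM. Their ratio intervals included 1.

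**Figure D4:**
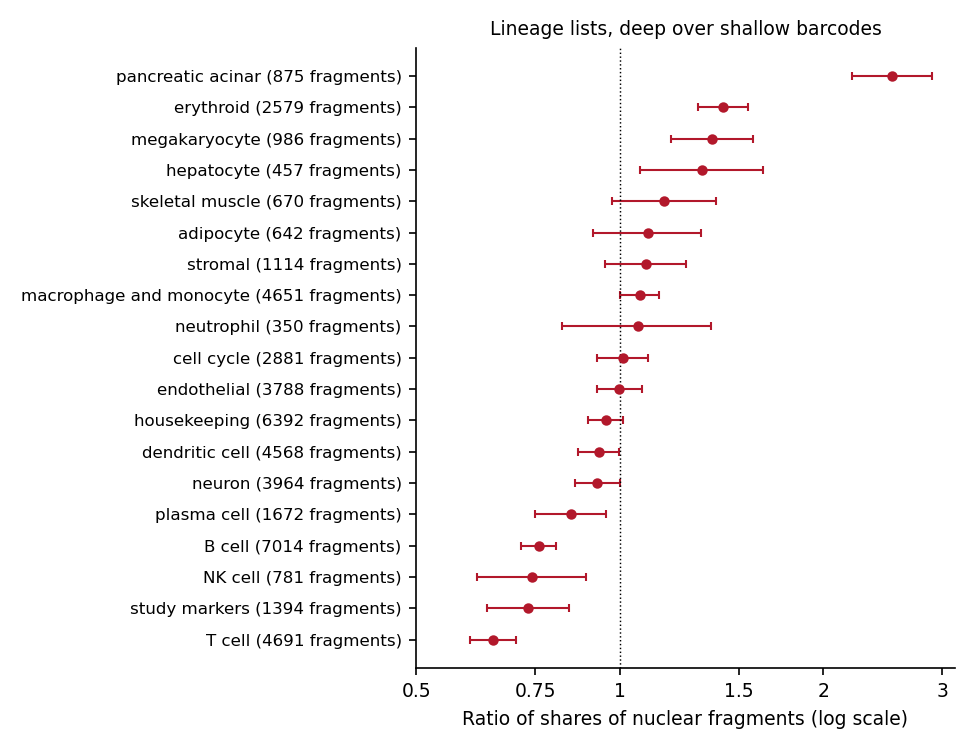
Ratio of the share of nuclear fragments in deep over shallow barcodes (horizontal axis, log scale) for 19 gene lists, with the fragments of both groups together beside each name; bars are exact 95% intervals for counting error and the dotted line is at 1. The acinar list stands apart at 2.53, erythroid and megakaryocyte genes lie at 1.42 and 1.37, and B and T cell genes at 0.759 and 0.649.

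The list ratios were graded with depth, not set by the limit of 1500 fragments. Relative to shallow barcodes, the acinar list stood at 1.26, 1.51, 2.08, 2.23 and 4.23 in the classes that begin at 700, 1000, 1500, 2000 and 3000 fragments. T cell genes stood at 0.857, 0.753, 0.614, 0.674 and 0.696 in the same classes, so they were lowest in the class that begins at 1500. B cell genes stood at 0.869, 0.777, 0.810, 0.710 and 0.714. Erythroid genes stood at 1.151, 1.26, 1.44, 1.51 and 1.24 and were thus lower again in the deepest class, where acinar genes were highest. Among the barcodes between the groups, every one of these 4 lists already lay on the side of 1 on which the deep barcodes lay.

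The 20 Tn5 indices split the same fragments into separate tagmentation reactions of the pool. They are a technical split and not replicates, and each held 17 to 81 deep barcodes, 2.82 to 6.27% of its barcodes. Fragments of 148 bp or more were more frequent in deep barcodes in 20 of 20 indices (ratios 1.05 to 1.118). T cell genes were lower in 20 of 20 (0.490 to 0.946) and B cell genes in 18 of 20 (0.409 to 1.06). Bulk regions had a lower share in 19 of 20 and promoters in 18 of 20. Erythroid genes were higher in 18 of 20 (0.847 to 2.34), acinar genes in 19 of 20 (0.692 to 6.66) and Kit in 19 of 20, with no Kit fragment among the deep barcodes of the remaining index. Kit was named for the highest ratio in these same fragments, and the lists were chosen with earlier results of these data known. The counts over indices are therefore no independent evidence for Kit or for the lists. The mitochondrial share was higher in 16 of 20. Megakaryocyte genes were higher in 14 of 20 (0.415 to 2.45), and endothelial genes in 9 of 20.

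**Figure D5:**
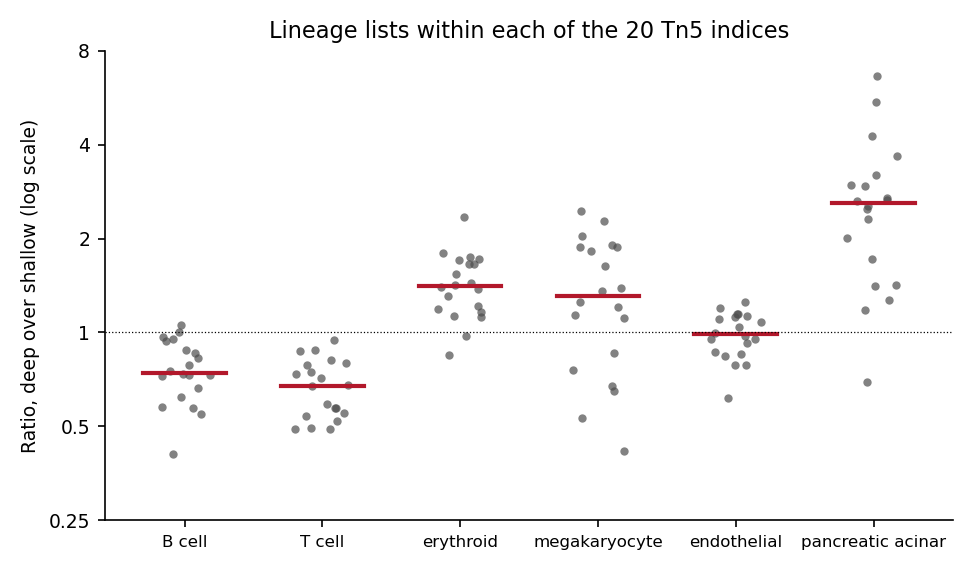
Ratio of the share of nuclear fragments in deep over shallow barcodes (vertical axis, log scale) for 6 gene lists within each of the 20 Tn5 indices; each grey point is 1 index, scattered sideways for visibility, red lines are medians over indices and the dotted line is at 1. T cell genes lie under 1 in all 20 indices and acinar genes over 1 in 19, while endothelial genes lie on both sides with a median of 0.986.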

How the data were processed

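For single cells the authors deposited the start, end and barcode of each fragment on mm10, and for bulk +RV libraries peak lists with a −log10 q per peak. Per the study's methods, single-cell reads were cut, aligned with BWA mem and freed of duplicates. Bowtie2 2.4, Picard 1.119, SAMtools 1.15 and SEACR 1.3 appear in the processing notes of the submitters without a role. Repeated rows, 0.732% of deep and 0.715% of shallow fragments, were kept. Fragments of the pooled +RV set were counted by midpoint in windows of GENCODE vM21 genes and scaled to nuclear fragments (CPM), with a pseudocount of 1 on the log2 scale. Fragments on unplaced scaffolds, 0.195% of the set, were not counted as nuclear. Overlapping genes share fragments. Bulk regions were peaks touched in both libraries. Scripts used Python 3.11.15, numpy 2.4.6, pandas 2.3.3 and scipy 1.17.1, and counting and intervals were tested on simulated data.

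The members, the 19 lists and the rules were chosen with earlier results of these data known. Named genes were the 10 highest and 10 lowest ratios among genes averaging 30 CPM or more, the 3 best covered members of each list and the study's 6 markers, of which those that carry a result are printed. Some genes that the rule names are not reported here. A further 7 lists and the alternative without barcodes of 2 or more acinar fragments were added after the values were seen. The bulk −RV lists were not used. Alternatives were other depth limits, thinning, other windows, minimums, folds and lengths, and removal of repeated rows or of the deepest barcodes.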

Additional observations from a re-analysis of the deposited data

How the results depend on the processing

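No paired analysis was possible because the replicates were deposited as 1 pooled set, and none could be left out. Values are deep over shallow ratios unless named. With deep barcodes from 2000 fragments the mitochondrial share was 1.17, long fragments 1.08, promoters 0.926, B cell genes 0.712, acinar genes 2.94 and genes past 1.5-fold 687 against 383. Without the deepest 1% these were 0.996 (mitochondrial, now under 1), 0.915 (promoters) and 2.10 (acinar). With every barcode thinned to 500 fragments the mitochondrial share was 1.05, promoters 0.916, genes past the fold 1128 and the neuron list 1.005, now over 1. The macrophage list was then 1.153 (interval from 1.02). Against barcodes of 700 to fewer than 1000 fragments, long fragments were 1.05 (1.049), promoters 0.955, bulk regions 0.928, genes past the fold 112, B cell 0.873, T cell 0.758, erythroid 1.24, megakaryocyte 1.16, acinar 2.00 and 5-kb bins 1.01 (1.007). Without lengths near the read ends, long fragments were 1.05. Promoters were 0.915 without acinar carriers and 0.927 without the long fragments, and bins were 1.01 (1.009) without repeated rows. In promoter windows genes past the fold were 23, B cell 0.673, NK cell 0.552, erythroid 1.26, megakaryocyte 1.63 (interval from 0.987) and hepatocyte 1.69 (interval from 0.575). Genes past the fold were 1258 at a minimum of 10 CPM, 3704 with none and 2000 at the smaller fold tried. The count thus depended on the setting, and thinning left fewer fragments. Intervals that excluded 1 came to include it on thinning for the NK cell (0.834), megakaryocyte (1.26), hepatocyte (1.124) and plasma cell lists (0.855). The dendritic cell (0.9555) and neuron lists (1.005) did so as well. For the study's markers the interval included 1 in promoter windows (0.753, 0.515 to 1.08). That of the NK cell list also included 1 against 700 to fewer than 1000 fragments (0.868, 0.710 to 1.06). The plasma cell interval included 1 too against those barcodes, without the deepest 1%, without the long fragments and in promoter windows. Depth sets the width of these intervals.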

Other observations

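Lists added after the values were seen filled in the neighbourhood of the leading genes. A list of hematopoietic progenitor genes, without Kit, had 1219 deep and 3184 shallow fragments, 723 against 561 CPM (ratio 1.29, interval 1.21 to 1.38), and 9 of 11 members were higher. Among them Angpt1 had 160 against 102 CPM (ratio 1.57, 1.35 to 1.82) and Gata2, a transcription factor of blood stem and progenitor cells, had 17.8 against 8.80 CPM (ratio 2.02, 1.24 to 3.24). The progenitor list was not higher in deep barcodes with 2 or more Kit fragments than in those with none. Mast cells also carry KIT, and the mast cell and basophil list had a ratio of 0.805 (0.624 to 1.03). A second erythroid list had a ratio of 1.28 (1.22 to 1.36). A longer acinar list had a ratio of 2.28 (2.06 to 2.53), with 21 of 22 members higher, while pancreatic duct genes stood at 1.32 (1.11 to 1.57) and islet genes at 1.17 (0.910 to 1.497). Genes of naive T cells stood at 0.680 (0.644 to 0.718), with all 12 members lower. These lists, and Angpt1 and Gata2 among their members, were chosen after the values were seen and are no independent evidence.

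Gene families gave smaller differences. The 1135 olfactory receptor genes, which are closed in blood cells, had a ratio of 0.915 (0.885 to 0.947), histone genes 0.943 (0.890 to 0.998), genes of cytosolic ribosomal proteins 0.971 (0.938 to 1.01) and Hox genes 0.990 (0.861 to 1.13).

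In the −RV set 43 of 2406 barcodes had 1500 or more fragments and 1541 had 500 to fewer than 700. Of 24 ratios, 15 lay on the same side of 1 as in the +RV set and 9 on the other side. On the same side, Kit had 9 deep and 22 shallow fragments (ratio 4.42, 1.79 to 9.98), T cell genes a ratio of 0.488 (0.313 to 0.728), B cell genes 0.467 (0.313 to 0.673), erythroid genes 2.00 (1.49 to 2.65) and bulk regions 0.866 (0.850 to 0.882). Acinar genes stood at 1.22 (0.694 to 2.03) on 17 and 150 fragments. On the other side, endothelial genes stood at 1.52 (1.14 to 1.99), against 0.999 in the +RV set. The others, whose −RV intervals included 1, were megakaryocyte (0.953), plasma cell (1.53), macrophage (0.787), neutrophil (0.263), housekeeping (1.11), skeletal muscle (0.613) and adipocyte genes (0.318) and the mitochondrial share (0.996). Differences between the sets were not tested.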
